A study of Mus musculus with 6 samples.

Results

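The mitosis genes are 50 protein-coding genes that carry a cell through division: cyclins and kinases of entry, spindle motors, kinetochore and checkpoint proteins, the chromosomal passenger complex, the proteins that end metaphase, and those of cytokinesis and chromosome packing. They were chosen by symbol for these known functions, with earlier results of these data known, out of 47606 genes in the deposited tables. Of these members, 50 of 50 were found in all 6 libraries. The libraries were RNA sequencing of 32D cells, a mouse myeloid progenitor line that depends on interleukin 3 and was grown here in 1 ng/mL of it. All groups carried dCas9-KRAB, a Cas9 that binds but does not cut DNA, joined to a repressor domain. Cells were transduced with lentivirus for guide sg2 (2 libraries), guide sg5 (2 libraries) or an empty vector without a guide, EV (2 libraries), and kept in puromycin for 1 week. The study's title concerns an enhancer of Cebpe, a transcription factor gene of granulocyte maturation. The sources used here do not give the guide sequences or where they bind. The labels do not say whether replicates were separate cultures or whether a line was 1 clone, so the p-values rest on a spread between libraries that may be technical. The second sg5 library is sg5 by its title, while its source name and genotype name sg2.

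Mitosis begins when cyclin B and Cdk1, switched on by Cdc25 phosphatases, phosphorylate a wide range of proteins. Chromosomes condense, kinetochores attach them to the spindle, and the checkpoint holds the anaphase-promoting complex (APC/C) inactive until attachment is complete. APC/C with Cdc20 then marks securin and cyclin B for destruction, separase cuts cohesin, and the cell divides. Transcripts of these genes accumulate in G2 and mitosis. In their promoters a CCAAT box, bound by NF-Y, often stands upstream of a cell cycle homology region (CHR), which is bound by the MuvB core together with B-Myb and FoxM1 in dividing cells and with pocket proteins in the repressive DREAM complex.

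The promoters of 6 members are shown because they hold both elements within the 100 bases before the annotated start, with at most 30 of those bases inside the gene as GENCODE draws it (sequences from RefSeq, GRCm38.p6, strand of the gene, 5′ to 3′). Members with more bases inside the gene, such as Ube2c, Kif22 and Bub3, hold both elements there too and are not printed. Capitals mark a CHR, TTTGAA or TTCGAA, and a CCAAT box, each on either strand, so that TTCAAA and ATTGG are the same elements read on the other strand.
Cdc20, chr4:118437344-118437443, minus strand: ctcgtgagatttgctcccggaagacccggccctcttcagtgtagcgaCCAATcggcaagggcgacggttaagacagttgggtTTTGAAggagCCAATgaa
Prc1, chr7:80294376-80294475, plus strand: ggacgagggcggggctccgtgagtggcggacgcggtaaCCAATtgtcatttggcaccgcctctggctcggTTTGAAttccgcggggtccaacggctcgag
Cdk1, chr10:69352913-69353012, minus strand: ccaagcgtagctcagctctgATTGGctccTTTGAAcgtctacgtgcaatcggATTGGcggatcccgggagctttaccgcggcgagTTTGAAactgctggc
Top2a, chr11:99024190-99024289, minus strand: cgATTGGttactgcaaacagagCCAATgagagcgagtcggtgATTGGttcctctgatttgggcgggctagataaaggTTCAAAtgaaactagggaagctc
Espl1, chr15:102296193-102296292, plus strand: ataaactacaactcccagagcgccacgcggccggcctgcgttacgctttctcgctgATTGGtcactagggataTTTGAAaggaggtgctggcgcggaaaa
Kif11, chr19:37376282-37376381, plus strand: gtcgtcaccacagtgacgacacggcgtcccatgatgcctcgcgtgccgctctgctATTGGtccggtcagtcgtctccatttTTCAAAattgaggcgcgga

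In Cdc20, Cdk1, Top2a, Espl1 and Kif11 the CHR nearest the start begins between 15 and 27 bases before it, and in Prc1 30 bases before it. These positions depend on the start chosen: at a second annotated start of Prc1 the same CHR begins 5 bases before it, and 26 or 27 of the printed bases of Prc1, Cdk1 and Espl1 lie inside the GENCODE gene. A promoter window, 250 bases before to 50 after the start, was matched for 41 of the 50 members. A CHR was found in 34 of these 41 genes (82.9%), a CCAAT box in 32 (78.0%) and both in 30 (73.2%). Over all 27025 genes of the promoter table the shares were 21.7%, 41.1% and 9.65%. In 30 members a CHR began between 30 bases before and 45 bases after the start. The 7 members with a window and no match to these letters were Nusap1, Birc5, Cenpe, Ccnb1, Pttg1, Mad2l1 and Nuf2. A match is a run of letters, not a measured binding site.

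**Figure D1:**
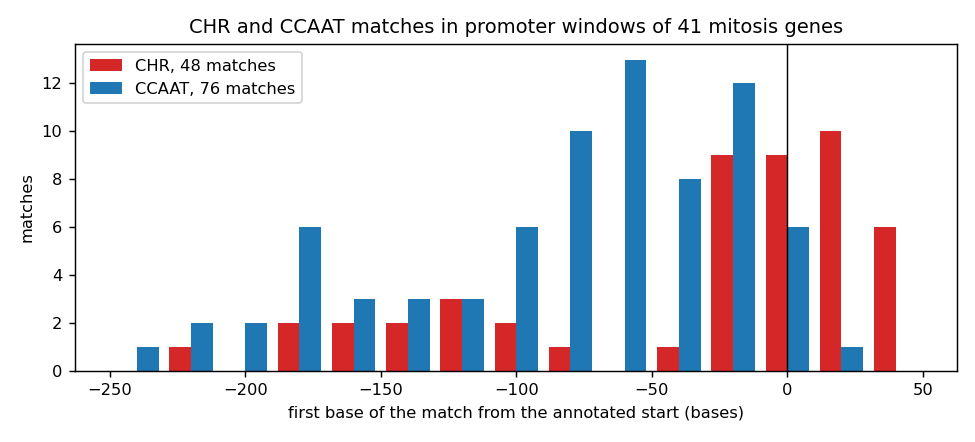
Positions of CHR (red, 48 matches) and CCAAT (blue, 76 matches) in the promoter windows of 41 mitosis genes, as the first base of the match counted in bases from the annotated start, with the number of matches on the vertical axis. Genes with a second annotated start have a window for each, so an element in both is counted in each. The CHR matches gather around the start and the CCAAT matches mostly lie upstream of it.

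Cebpe, the gene in the title, and granulocyte markers were read first, as a check of the labels. Cebpe had 14.4 and 18.7 FPKM (fragments scaled to transcript length and library depth, as deposited) with sg2 and 19.4 and 22.7 FPKM with sg5, against 42.0 and 100.4 FPKM in EV cells. S100a9, a protein of maturing neutrophils, had 1.07 and 2.97 with sg2 and 3.98 and 2.47 FPKM with sg5, against 129.9 and 98.4 FPKM in EV cells. The summed FPKM of 10 late granulocyte markers, 6 of which averaged 1 FPKM or more, was 151 to 207 in guide libraries, against 490.1 and 781 in EV libraries. Of 8 myeloid progenitor markers 6 averaged 1 FPKM or more, while Kit was listed at 0 and Cd34 averaged 0.26 FPKM. Markers of T cells (0 of 4), B cells (1 of 4, Cd79a at 1.61 FPKM), erythroid cells (2 of 4) and fibroblasts (0 of 4) rarely reached that level. The lowest FPKM values implied 31800000 to 39500000 fragments per guide library, against 32300000 and 45700000 per EV library. Genes with transcripts under 200 nt took 9.03% and 21.5% of the summed FPKM with sg2, 9.67% and 15.4% with sg5, and 6.77% and 16.4% in EV cells, so that replicate number 2 had the larger share in every group.

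The mitosis genes were expressed in every library and lie on 17 chromosomes, with at most 8 on chromosome 2. The median of all genes tested was 15.5 to 15.8 FPKM per library. Averaged over the 6 libraries, they ranged between 16.1 FPKM (Cdc25c) and 359 FPKM (Top2a), with a median of 70.9 FPKM, and 50 of 50 passed the filter of a mean of 1 FPKM. Their summed FPKM was 4289 and 4283 with sg2 and 4488 and 4415 with sg5, against 4024 and 3998 in EV cells. These sums lay above both EV libraries in the 4 guide libraries, but the groups overlapped when the sum was taken as a share of all FPKM in the library: 0.503% and 0.458% with sg2 and 0.539% and 0.523% with sg5, against 0.498% and 0.455% in EV cells. As a share of the FPKM of protein-coding genes it was 0.677% and 0.774% with sg2 and 0.729% and 0.816% with sg5, against 0.638% and 0.716% in EV cells, which also overlap. Both shares were higher in each guide library than in the EV library of its number. RNA from more cells in mitosis and more RNA per mitotic cell cannot be told apart in bulk libraries.

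All 50 genes had a higher mean FPKM in guide libraries than in EV libraries, by a small amount that no single gene carried past the test. The guide mean lay between 102% (Cdk1) and 125% (Cdc25c) of the EV mean, with a median of 110.4%. On log2(FPKM + 1), the scale of all differences and standard errors (SE) below, guides minus EV had a median of 0.14 over the members and ranged between 0.02 (Spc24) and 0.30 (Cdc25c). Over all 12929 genes tested, the median difference was -0.0046 and 48.7% were above 0. By limma with Benjamini-Hochberg adjustment over all genes tested, 0 of 50 members passed 0.05, where the share of all genes called was 0%, and the adjusted p was 1.00 for each member. Cebpe (log2 difference -1.75) and S100a9 (-5.05, adjusted limma p 0.0811) were not called in this fit either. A missed call therefore says little about small differences. Without adjustment 0 of 50 members had a limma p under 0.05, against 1.31% of all genes tested. The members share the same EV libraries and may move together. Counts of members, here and below, are therefore not counts of independent genes. The list was also chosen with earlier results of these data known, so the counts do not come from a blind choice.

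With 1 library left out, some members turned in direction. Without EV replicate 1, 44 of 50 members were higher with the guides (median 0.15), and 42 (median 0.14) with the replicate number as a block. Without EV replicate 2, 35 of 50 were higher (median 0.10), and 47 (median 0.13) with the block. With a guide library left out and no block, 7 were lower without sg5 replicate 1 and 4 without sg2 replicate 1. Leaving out sg2 replicate 2 or sg5 replicate 2 left 1 member lower in each case. Unless the block is named, values below for a left-out library come from the fit without it, in which the replicate numbers of the groups are unbalanced. With values rescaled to an equal sum in each library (TPM), 46 of 50 were higher, with a median of 0.10 against -0.04 for all genes; Cdk1, Mad2l1, Cenpf and Spc24 were then lower. The 4 guide libraries all lay above both EV libraries for 10 of 50 members (20%), against 2.54% of all genes tested, and all below for 0 members, against 2.56%. These 10 were Ccnb2, Cdc25c, Aurkb, Ttk, Cenpe, Tpx2, Anln, Cdca8, Ube2c and Sgol1.

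**Figure D2:**
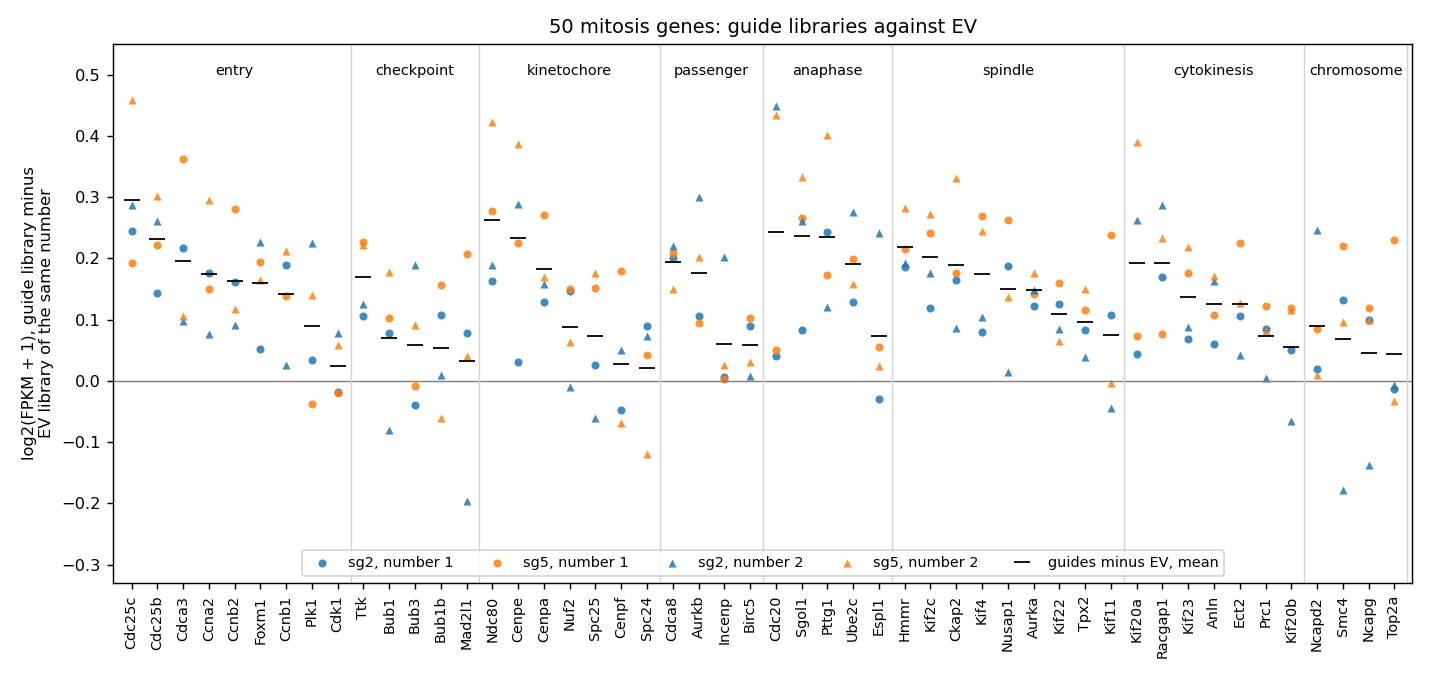
Log2(FPKM + 1) of each guide library minus the EV library of the same replicate number, for the 50 mitosis genes by role; blue is sg2, orange is sg5, circles are number 1, triangles number 2, and the bar is the mean difference of guides minus EV. All 50 bars lie above 0, and single points reach down to -0.20 (Mad2l1, sg2 number 2) and up to 0.46 (Cdc25c, sg5 number 2).

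Since libraries of the same replicate number deviated together, the number was also fitted as a block. The block left each difference as it was and lowered the SE of the members, which ran between 0.057 (Birc5) and 0.10 (Smc4) with it, against 0.11 (Anln) and 0.40 (Pttg1) without it. With the block 0 of 50 members passed the adjusted threshold, where 0.0387% of all genes did, and the smallest adjusted limma p of a member was 0.737. Without adjustment 15 of 50 members had a limma p under 0.05 with the block, all higher with the guides, against 5.72% of all genes tested. Since members may move together, the 15 are not independent of each other. The 15 were Cdc25b, Cdc25c, Aurka, Aurkb, Cenpa, Cenpe, Ndc80, Kif2c, Cdca8, Cdca3, Ube2c, Hmmr, Racgap1, Sgol1 and Pttg1. Of 18 genes picked by rule, 10 turned in direction without the block when 1 library was left out. With the block, Cdc20, Cenpa, Ndc80, Prc1, Birc5, Pttg1 and Ncapd2 of these 10 kept a positive difference each time. It ran between 0.149 and 0.210 for Cenpa, 0.207 and 0.307 for Ndc80 and 0.170 and 0.291 for Pttg1. Cdk1, Mad2l1 and Top2a still turned, to as low as -0.018, -0.077 and -0.020.

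Among the 9 genes of mitotic entry, the median difference of guides minus EV was 0.16. Cdc25c, a phosphatase that activates Cdk1, had 16.1 and 17.6 with sg2 and 15.5 and 19.9 FPKM with sg5, against 13.4 and 14.2 FPKM in EV cells. All 4 guide libraries were higher than both EV libraries, and the means were 17.2 ± 1.98 FPKM with the guides (SD, n = 4) and 13.8 ± 0.572 FPKM in EV cells (SD, n = 2). The log2 difference was 0.30 (SE 0.14), with an unadjusted limma p of 0.0760 without the block and 0.0140 with it. The exact permutation p of Cdc25c was 0.133, two-sided. Cdc25c shares 623 exon bases with Gm3550 on the opposite strand, which averaged 1.48 FPKM, and the sources used here do not say whether counting used strand. Cdk1, the kinase that drives entry, had 287 and 283 with sg2 and 287 and 279 FPKM with sg5, against 291 and 268 FPKM in EV cells. Its guide libraries lay inside the EV range, and its log2 difference of 0.03 (SE 0.12) turned to -0.014 with TPM scaling and to -0.033 without EV replicate 2. Ccnb2, a B-type cyclin, had 153 and 160.5 with sg2 and 166 and 163 FPKM with sg5, against 137 and 151 FPKM in EV cells. These libraries did not overlap (exact permutation p = 0.0667, two-sided, the smallest that 15 splits allow); a pseudogene, Ccnb2-ps, averaged 7.32 FPKM and may share reads with it. Foxm1, the transcription factor of G2 and M genes, had 83.8 and 101 with sg2 and 92.5 and 96.5 FPKM with sg5, against 80.7 and 86.0 FPKM in EV cells, so that its groups overlapped.

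The 9 genes of the spindle had a median difference of 0.15. Hmmr, a microtubule-associated protein of spindle poles, had 60.3 and 74.7 with sg2 and 61.6 and 79.6 FPKM with sg5, against 52.9 and 65.3 FPKM in EV cells. Replicate number 2 was the higher one in each group, the groups overlapped, and each guide library exceeded the EV library of its number. The log2 difference of Hmmr was 0.22 (SE 0.18), with an unadjusted limma p of 0.260 without the block and 0.0128 with it. Nusap1, which bundles spindle microtubules, had 101 and 83.4 with sg2 and 106 and 90.8 FPKM with sg5, against 88.5 and 82.5 FPKM in EV cells. Here number 1 was the higher one in each group, and the log2 difference was 0.15 (SE 0.15). Nusap1 shares 172 exon bases with Oip5 on the opposite strand, at 21.4 FPKM. Tpx2, an activator of Aurora A on the spindle, had 82.5 and 82.2 with sg2 and 84.4 and 88.9 FPKM with sg5, against 77.9 and 80.0 FPKM in EV cells. Its groups did not overlap, and its log2 difference was 0.10 (SE 0.11; exact permutation p = 0.133, two-sided). The motor Kif11, with the CHR promoter shown above, had 62.2 and 50.7 with sg2 and 68.2 and 52.2 FPKM with sg5, against 57.6 and 52.4 FPKM in EV cells, which overlap.

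The 7 kinetochore and centromere genes had a median difference of 0.09. Ndc80, the microtubule-binding subunit of the outer kinetochore, had 55.5 and 38.4 with sg2 and 60.1 and 45.4 FPKM with sg5, against 49.4 and 33.6 FPKM in EV cells. Number 1 was the higher one in every group by more than the guides differed from EV. The log2 difference of Ndc80 was 0.26 (SE 0.24), with an unadjusted limma p of 0.318 without the block and 0.0280 with it, and without EV replicate 2 it was -0.0083. Cenpa, the histone variant that marks the centromere, had 132 and 213 with sg2 and 145 and 214 FPKM with sg5, against 120.4 and 190.5 FPKM in EV cells. Its order by number was the other way round, with number 2 the higher one in every group. The log2 difference of Cenpa was 0.18 (SE 0.30), and -0.15 without EV replicate 1. Cenpe (ENSMUSG00000045328, chr3:135212537-135273611 in GRCm38), a kinetochore motor, had 21.5 and 22.5 with sg2 and 24.8 and 24.1 FPKM with sg5, against 21.0 and 18.2 FPKM in EV cells. All its guide libraries were above both EV libraries, with a log2 difference of 0.23 (SE 0.13; exact permutation p = 0.0667, two-sided). Spc24, a subunit of the Ndc80 complex, had the smallest difference of the members, 0.02 (SE 0.33).

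The 5 checkpoint genes had a median difference of 0.059. Ttk (ENSMUSG00000038379, chr9:83834689-83872389 in GRCm38), the checkpoint kinase also known as Mps1, had 31.0 and 32.4 with sg2 and 33.7 and 34.7 FPKM with sg5, against 28.7 and 29.6 FPKM in EV cells. The groups did not overlap, with means of 32.9 ± 1.63 FPKM with the guides (SD, n = 4) and 29.2 ± 0.667 FPKM in EV cells (SD, n = 2). The log2 difference of Ttk was 0.17 (SE 0.11; exact permutation p = 0.0667, two-sided). Mad2l1, the checkpoint protein that binds Cdc20, had 111 and 109 with sg2 and 121 and 129 FPKM with sg5, against 105 and 125 FPKM in EV cells. The EV libraries spanned the whole sg2 range, and the log2 difference was 0.03 (SE 0.14). It was -0.0059 with TPM scaling, -0.093 without EV replicate 1 and -0.012 without sg5 replicate 2. Bub1, Bub1b and Bub3, the other checkpoint members, had overlapping groups.

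The 4 genes of the chromosomal passenger complex, which corrects wrong attachments and later moves to the midzone, had a median difference of 0.12. Cdca8 (ENSMUSG00000028873, chr4:124918465-124939311 in GRCm38), its borealin subunit, had 128 and 138 with sg2 and 129 and 131 FPKM with sg5, against 111 and 118 FPKM in EV cells. The guide libraries were all above both EV libraries, with means of 131 ± 4.48 FPKM with the guides (SD, n = 4) and 115 ± 4.86 FPKM in EV cells (SD, n = 2). The log2 difference of Cdca8 was 0.19 (SE 0.12), with an unadjusted limma p of 0.144 without the block and 0.0159 with it. Cdca8 shares 232 exon bases with 9930104L06Rik on the opposite strand, at 9.31 FPKM. Aurkb, the kinase of the complex, had 117 and 124 with sg2 and 116 in both libraries with sg5, against 109 and 100.4 FPKM in EV cells. Its groups did not overlap either, and its log2 difference was 0.18 (SE 0.12). Birc5, known as survivin, had 166 and 137 with sg2 and 168 and 139 FPKM with sg5, against 156 and 136 FPKM in EV cells. Its values divided by replicate number, and each guide library was slightly above the EV library of its number. The log2 difference of Birc5 was 0.06 (SE 0.15), and -0.039 without EV replicate 2. With the block and 1 library left out it ran between 0.020 and 0.097.

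The 5 genes of anaphase onset and mitotic exit had a median difference of 0.23, the highest of the roles with all libraries. It was 0.20 without EV replicate 1, where the kinetochore genes had 0.31, and 0.18 without EV replicate 2, where the cytokinesis genes had 0.22. Sgol1 (ENSMUSG00000023940, chr17:53674786-53689333 in GRCm38), which shields centromeric cohesin and is named Sgo1 in GENCODE, had 31.5 and 34.4 with sg2 and 35.8 and 36.2 FPKM with sg5, against 29.6 and 28.5 FPKM in EV cells. The groups did not overlap, with means of 34.5 ± 2.14 FPKM with the guides (SD, n = 4) and 29.1 ± 0.801 FPKM in EV cells (SD, n = 2). The log2 difference of Sgol1 was 0.24 (SE 0.12), with an unadjusted limma p of 0.0896 without the block and 0.0289 with it. Cdc20, the APC/C activator, had 86.2 and 80.7 with sg2 and 86.8 and 80.0 FPKM with sg5, against 83.8 and 58.9 FPKM in EV cells. EV replicate 2 stood below the other 5 libraries, and the log2 difference of 0.24 (SE 0.17) became -0.0071 without it. Pttg1, securin, the inhibitor of separase, had 112 and 187 with sg2 and 107 and 227 FPKM with sg5, against 94.5 and 172 FPKM in EV cells. Its values divided by replicate number, with a log2 difference of guides minus EV of 0.23 (SE 0.40) that was -0.19 without EV replicate 1. Ube2c, the ubiquitin-conjugating enzyme of APC/C, had 149 and 163 with sg2 and 156 and 149.9 FPKM with sg5, against 136 and 134 FPKM in EV cells, without overlap. Espl1, separase, had 17.7 and 21.5 with sg2 and 18.8 and 18.3 FPKM with sg5, against 18.1 and 18.0 FPKM in EV cells, and overlapped.

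The 7 genes of cytokinesis had a median difference of 0.13. Kif20a, a motor of the central spindle, had 52.6 and 48.7 with sg2 and 53.7 and 53.3 FPKM with sg5, against 51.0 and 40.4 FPKM in EV cells. The groups overlapped by the second sg2 library, and the log2 difference was 0.19 (SE 0.14), or 0.029 without EV replicate 2. Kif20a shares 1271 exon bases with Cdc23 on the opposite strand, at 51.5 FPKM, so its level is uncertain. Prc1, which crosslinks the antiparallel microtubules of the midzone, had 124 and 148 with sg2 and 127 and 156 FPKM with sg5, against 117 and 147 FPKM in EV cells. It was higher in number 2 of every group, with a log2 difference of 0.07 (SE 0.17) that was -0.094 without EV replicate 1, and it shares 911 exon bases with Rccd1, at 19.9 FPKM. Anln, anillin, a scaffold of the contractile ring, had 33.9 and 35.0 with sg2 and 35.0 and 35.3 FPKM with sg5, against 32.5 and 31.2 FPKM in EV cells. Its groups did not overlap, although the difference was small, 0.13 (SE 0.11).

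The 4 genes of chromosome structure had a median difference of 0.056, beside 0.059 for the checkpoint genes. It was 0.137 without EV replicate 1 and -0.0029 without EV replicate 2. Top2a, the topoisomerase that untangles sister chromatids, had 359 and 337 with sg2 and 425 and 331 FPKM with sg5, against 362 and 338 FPKM in EV cells. The first sg5 library alone was above the rest, and the log2 difference of 0.04 (SE 0.16) was -0.034 without it and -0.0044 without EV replicate 2. Ncapd2, a condensin I subunit, had 117 and 120.4 with sg2 and 122 and 102 FPKM with sg5, against 115 and 101 FPKM in EV cells. Its groups overlapped, with a log2 difference of 0.09 (SE 0.14) that was -0.0013 without EV replicate 2.

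**Figure D3:**
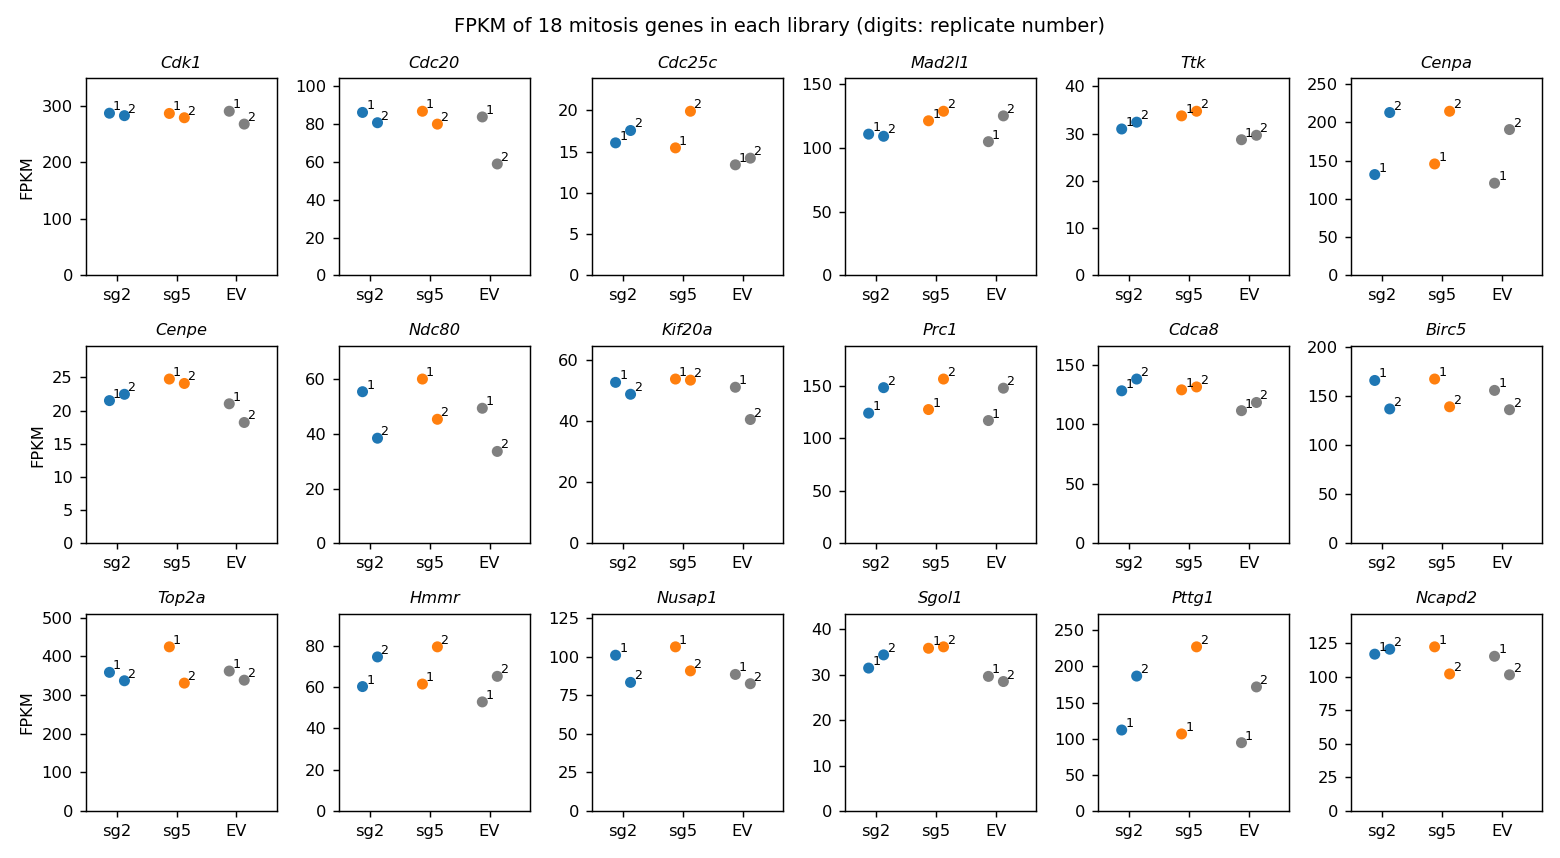
FPKM of 18 mitosis genes in each library, with sg2 (blue), sg5 (orange) and EV (grey) side by side on axes that start at 0; the digit is the replicate number. Cdc25c, Ttk, Cenpe, Cdca8 and Sgol1 have all guide points above both EV points, while Pttg1, Cenpa, Ndc80 and Birc5 divide by replicate number.

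Each guide was also set against EV alone, with both comparisons sharing the EV libraries. With sg2, 43 of 50 members were higher than in EV cells and the median difference was 0.11, between -0.06 (Mad2l1) and 0.27 (Cdc25c); with TPM scaling 32 of 50 were higher, with a median of 0.03, where the median of all genes tested was -0.075 and 28.8% were above 0. No member was called with sg2 (0 of 50, against 0.00773% of all genes), and none had an unadjusted limma p under 0.05, against 1.16% of all genes. With sg5, 49 of 50 members were higher than in EV cells and the median difference was 0.16, between -0.04 (Spc24) and 0.35 (Ndc80). Of all genes tested, 50.9% were higher with sg2 and 47.4% with sg5. All sg5 results, here and against sg2, count the second sg5 library by its title, although its source name and genotype name sg2. With 1 library left out, that one included in turn, the median of sg5 minus EV ran between 0.13 and 0.16. No member was called with sg5 (0 of 50, against 0% of all genes), and none had an unadjusted limma p under 0.05, against 1.36% of all genes. With the block, 0 members were called with sg2, where 0.0232% of all genes were, and 0 with sg5, where 0.0155% were; the smallest adjusted limma p of a member with sg5 was 0.532. With the block and no adjustment, 4 members had a limma p under 0.05 with sg2, where the share of all genes was 4.3%, and 13 with sg5, where it was 8.04%. For chromosome structure, the median was -0.01 with sg2 and 0.10 with sg5.

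The guides were set against each other directly. Of the 50 members, 37 were higher with sg5 than with sg2, with a median difference of 0.07. The range was -0.12 (Spc24) to 0.18 (Mad2l1), with an SE of 0.15 to 0.51. None was called (0 of 50, against 0% of all genes), and none had an unadjusted limma p under 0.05, against 0.859% of all genes; with the block the counts were 0 of 50, against 0% and 5.29%. For Mad2l1, with 121 and 129 FPKM with sg5, against 111 and 109 FPKM with sg2, the libraries did not overlap, and the difference of 0.18 (SE 0.18) had an unadjusted limma p of 0.353. The median was -0.013 without the first sg5 library, and 0.16 with TPM scaling, where 48 members were higher with sg5. That scaling also moved the median of all genes tested to 0.072, with 67.7% above 0, against -0.0099 and 47.1% without it. A p that misses the threshold does not show that the guides act alike.

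Within replicate numbers, which share an EV library for each pair of guides, most members were higher with the guide. In number 1, 45 of 50 were higher with sg2 than in EV cells (median 0.10), where 52.3% of all genes were, and 47 with sg5 (median 0.17), where 49.4% of all genes were. In number 2, 41 of 50 were higher with sg2 (median 0.10), where 49.1% of all genes were, and 45 with sg5 (median 0.15), where 46.2% of all genes were. The member with the lowest value was another one in each of the 4 pairs: Cenpf and Plk1 in number 1, Mad2l1 and Spc24 in number 2.

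The absolute difference between replicate numbers, averaged over the groups, exceeded the absolute difference between guides and EV for 36 of 50 members. The former averages differences of single libraries and the latter is a difference of means, which favors the former. The share of all genes for which this holds was not counted. Over the members the former had a median of 0.22, against 0.35 over the 6426 tested genes at or above the lowest member's level. Over all genes tested its median was 0.37. The difference between numbers split the members: 17 were higher in number 2 than in number 1 in all 3 groups, 20 were lower in all 3, and 13 were mixed. Pttg1 was higher in number 2 by 0.73 with sg2, 1.08 with sg5 and 0.85 in EV cells. Cenpa was higher by 0.69 with sg2, 0.56 with sg5 and 0.66 in EV cells. Bub1 was lower in number 2, at -0.88 with sg2, -0.65 with sg5 and -0.72 in EV cells. Of the Ndc80 complex, Ndc80, Nuf2 and Spc24 were lower in number 2 in all 3 groups and Spc25 was mixed, at -0.035 with sg2, 0.075 with sg5 and 0.051 in EV cells. Spc24 stood at -0.69 with sg2, -0.83 with sg5 and -0.67 in EV cells, and Nuf2 at -0.60, -0.53 and -0.44. Cdc20 differed among the groups, at -0.09 with sg2, -0.12 with sg5 and -0.50 in EV cells. Across the 50 members, this difference correlated between groups at 0.894 (sg2 and EV), 0.908 (sg5 and EV) and 0.898 (sg5 and sg2), where the points share the replicate number. The larger short RNA share of number 2 moved with it; its part in the result was not tested.

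**Figure D4:**
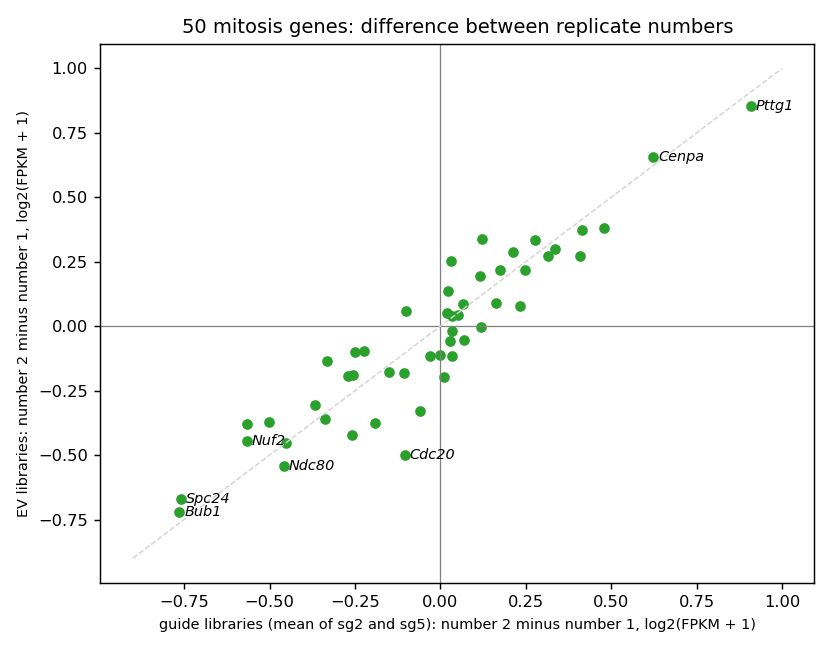
Log2(FPKM + 1) of replicate number 2 minus number 1 for the 50 mitosis genes (dots), in guide libraries (mean of sg2 and sg5, horizontal) and EV libraries (vertical), with the dashed line marking equal values. Pttg1 and Cenpa lie far to the upper right, Bub1 and Spc24 far to the lower left, and Cdc20 lies below the line.

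Other genes of cell division were read from lists chosen by function, also with earlier results of these data known. Of 37 further G2 and M genes, 35 were higher with the guides and 2 were lower, with a median difference of 0.13, and 0 were called; 28 were higher and 9 lower without EV replicate 1, and 26 higher and 11 lower without EV replicate 2. Kif18b, a kinesin that shortens microtubules, was the highest at 0.37: it had 28.8 and 49.0 with sg2 and 33.5 and 49.2 FPKM with sg5, against 27.2 and 33.1 FPKM in EV cells, which overlap. Mki67, the proliferation marker, had 79.3 and 86.8 with sg2 and 101 and 77.8 FPKM with sg5, against 87.9 and 81.1 FPKM in EV cells, also overlapping. Of 27 further kinetochore genes, 20 were higher and 7 lower, with a median of 0.06 and 0 called; with TPM scaling 15 were higher and 12 lower. Without EV replicate 2, 7 of these 27 were higher and 20 lower, with a median of -0.11. Of 17 APC/C subunits and regulators, 10 were higher and 7 lower, with a median of 0.04 and 0 called; without EV replicate 2 the median was -0.07. Of 14 cohesin and further condensin genes, 7 were higher and 7 lower (median 0.0017, 0 called), with a median of 0.16 without EV replicate 1 and -0.23 without EV replicate 2. Of 17 G1 regulators above the filter, 8 were higher and 9 lower, with a median of -0.03 and 0 called. The list of 12 MuvB and pocket protein genes also held Mybl2 (B-Myb) and the E2F and DP genes E2f4, E2f5, Tfdp1 and Tfdp2. Of these 12, 3 were higher and 9 lower, with a median of -0.06 and 0 called. The values ran between -0.29 (Tfdp1) and 0.13 (Lin54), and without EV replicate 1 the median was 0.05.

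**Figure D5:**
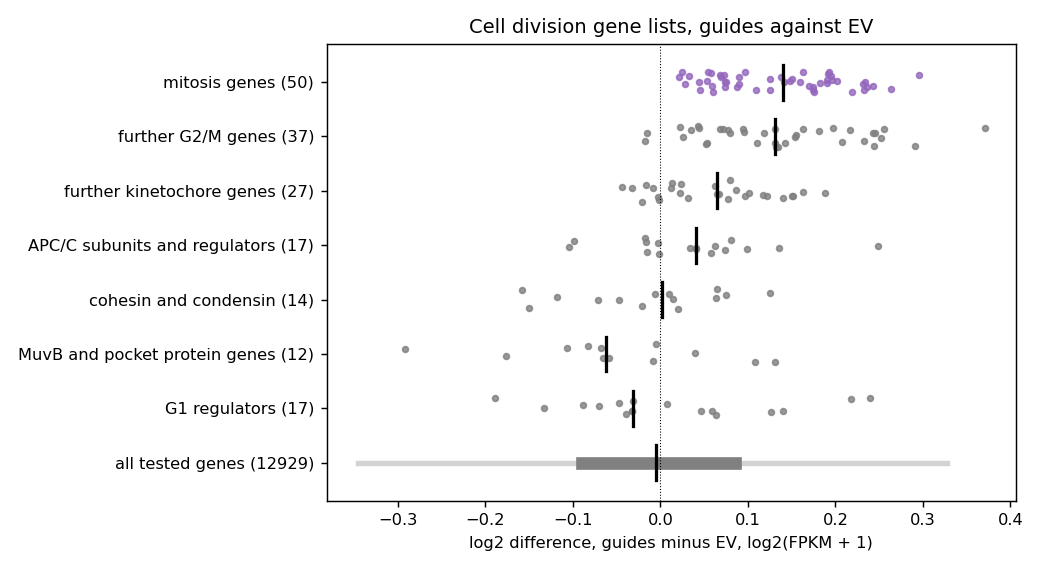
Log2(FPKM + 1) of guides minus EV for the mitosis genes (purple) and 6 further lists (grey), 1 dot per gene, with the black bar at the median; the bottom row gives all 12929 tested genes, with a thick bar for the 25th to the 75th percentile and a thin one for the 5th to the 95th. The mitosis genes lie between 0.02 and 0.30, and each of the 6 further lists holds genes on both sides of 0.

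Last, the differences were set beside the promoter elements shown above. The 34 members with a CHR had a median difference of 0.13, and the 7 without one had 0.14. Among the other tested genes with a promoter window, those with a CHR (1397) had a median of -0.0012 and those without (7149) had -0.0059. The 678 with both a CHR and a CCAAT box had a median of 0.0073. These are descriptions of the letters in the window and of the FPKM values, with no test.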

How the data were processed

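RNA sequencing libraries of 32D cells with sg2, sg5 or EV (2 each) were analysed from 1 table per library of FPKM values that the authors deposited. Per the submitters' processing notes, kallisto 0.43.0 and DESeq2 were used, with the builds GRCm38 and mm10; how kallisto estimates became FPKM is not given in the sources used here. No count model was run, since the tables hold no counts. Depth was implied from the smallest FPKM steps of 752 genes (assumed fragment length 200 nt), of which 93.2% to 97.8% of low values were whole within 0.15 fragments. The lowest member, Cdc25c, had 1055 implied fragments in its lowest library. That number takes its longest transcript, and is smaller if shorter ones were expressed. For members with few fragments and close replicates, such as Cdc25c, Ttk and Espl1, counting error is comparable to the spread between EV libraries or above it.

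Values were taken as log2(FPKM + 1), a scale that understates changes of low genes, for the 12929 of 26126 genes above 0 with a mean of at least 1 FPKM. Tests used limma 3.58.1 (R 4.3.3), a trend of spread with level, and p-values adjusted after Benjamini and Hochberg over all genes tested, at 0.05: 4 guide libraries against 2 EV, and a 3-group fit for each guide and for sg5 against sg2. Single genes had an exact two-sided permutation test over 15 splits, which cannot give a p under 0.0667. Of the members whose groups do not overlap, Cdc25c and Tpx2 had an exact permutation p of 0.133 and the others 0.0667. For genes named for that lack of overlap, the lowest p mostly restates it. The scripts were tested on simulated data. Tables and figures used matplotlib 3.10.9, scipy 1.17.1, pandas 2.3.3 and numpy 2.4.6 in Python 3.11.15.

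Alternatives were the replicate number as a block, TPM and median-ratio scaling, another pseudocount (0.1), no filter or a mean of at least 5 FPKM, no trend, and leaving out each library. The differences of number 2 minus number 1 correlated across genes tested at 0.611 (sg2 and EV), 0.591 (sg5 and EV) and 0.583 (sg5 and sg2), so the numbers were treated as pairing the libraries; this reading is drawn from the values, as no label ties a number to a batch or day. Within each role, the genes described were those of highest mean, smallest p and largest difference, plus the largest difference between sg5 and sg2; others, such as those whose groups do not overlap, were named after their values were seen. The members and lists were chosen with earlier results of these data known. Symbols were matched to GENCODE M21 (GRCm38), and promoters to the RefSeq table of GRCm38.p6; the position column of the files was not used.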

Additional observations from a re-analysis of the deposited data

Results flagged for a closer look

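Of the 50 members, each tested in the 4 guide libraries, Anln was picked out because 1 library stood apart from the others. It had 33.9 FPKM in the first sg2 library, against 35.0 to 35.3 FPKM in the other 3 guide libraries. The gap was 0.831 of the whole range of the 4 values, just past the 95% limit of Dixon's test for 4 samples. Chance picks out about 1 in 20 groups. The EV libraries of Anln, at 32.5 and 31.2 FPKM, lay below all 4.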

How the results depend on the processing

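No mitosis gene was called in any of the 4 comparisons under any alternative run. Of 342 alternatives over 18 genes, 322 kept the direction and 20, in 10 genes, turned it; the smallest adjusted limma p was 0.357. Genes called for guides against EV numbered 0, with 5 under the replicate block, 6 without a filter and 4 without a trend. With 1 guide library left out there were 0 to 1, and 0 to 2 when the block was kept as well. For sg2 against EV there was 1, with 3 under the block, 0 without a filter or at a mean of at least 5 FPKM, 0 to 0 with 1 library left out and 0 to 1 when the block was kept as well. For sg5 against EV there were 0, with 2 under the block and 18 without a filter, and for sg5 against sg2 0, with 23 without a filter. The median of sg5 minus sg2 over the members ran between -0.013 and 0.0698 with 1 library left out. TPM scaling turned Cdk1 to -0.014 and Mad2l1 to -0.0059. With 1 library left out, the log2 difference of guides minus EV ran between -0.033 and 0.084 for Cdk1, -0.0071 and 0.49 for Cdc20, -0.093 and 0.16 for Mad2l1, -0.15 and 0.51 for Cenpa, -0.0083 and 0.53 for Ndc80, -0.094 and 0.24 for Prc1, -0.039 and 0.16 for Birc5, -0.034 and 0.093 for Top2a, -0.19 and 0.66 for Pttg1, and -0.0013 and 0.18 for Ncapd2. With the block as well, Cdk1 turned to -0.018 without EV replicate 2. Mad2l1 turned to -0.077 without EV replicate 1, -0.011 without sg5 replicate 1 and -0.0022 without sg5 replicate 2. Top2a turned to -0.020 without EV replicate 1 and -0.017 without sg5 replicate 1. The cause was not tested. A lone library left in a group was assumed to vary like the others. The replicate block changed no call of a member. FPKM without counts, and 2 libraries in each group, limit what can be detected.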
